A study of Mus musculus with 16 samples.

Results

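The genes described here build ribosomes or belong to the growth programme of the transcription factor MYC. They are 40 genes chosen by name from the deposited count table, out of 24394 named genes. These include Myc and Mycn, a pair of polyamine enzymes, 4 genes of or linked to RNA polymerase I and 7 nucleolar or growth-linked proteins. The others are 6 proteins of small nucleolar ribonucleoproteins (snoRNPs), 8 assembly factors of the small ribosomal subunit and 11 of the large one. Measured expression did not enter the choice rule, although earlier results of these data were known when it was made. All 40 passed the filter on low counts and were tested among 14862 genes. RNA came from CD8+ T cells of the marrow, isolated by flow sorting from mice in bone marrow failure (BMF), a state in which T cells attack blood-forming cells. One arm received no drug (BMF). The other received baricitinib (BAR), a JAK1 and JAK2 inhibitor that dampens signals of interferon and interleukin receptors. Collection was on day 10 or day 14 after induction; each arm has 5 libraries from the earlier day and 3 from the later one, so all 16 libraries come from mice in which marrow failure had been induced and none from healthy mice. Not given in the sources used here were strain, sex, age, dose and the way failure was induced. The labels speak of pooled cells without saying how many animals stand behind a library, and every p-value therefore reflects only spread among libraries, part of which may be technical.

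Ribosome production starts in the nucleolus, where RNA polymerase I copies the ribosomal DNA into one long 45S precursor. Helicases, snoRNPs and subunit-specific assembly factors then fold, modify and cut that precursor into the RNAs of the small and large subunits. MYC raises transcription of many of these factors and of the polyamine enzymes. In T cells the programme is switched on with activation and growth and goes down as cells return to rest. In mouse tables the symbol Rn45s stands for the whole 45S unit, and its share of counts is given beside the members. That unit holds the sequences of the finished RNAs too, so its counts do not measure the precursor alone.

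Many MYC targets carry the E-box CACGTG near their start, and this hexamer, a palindrome that reads the same on both strands, was looked for in the RefSeq promoter windows of build GRCm38.p6, each 300 bases long with 250 bases before the annotated start and 50 after it. Windows were found for 33 members, and 7 of them (21.2%) held the hexamer, against 2187 of 27025 genes with a window (8.09%). Windows for Bop1, Rrs1, Rrp12, Npm1, Fbl, Myc and Srm were not used here. The 7 sites are shown because they place the letters of the MYC motif in genes whose levels are described below; each line is 30 bases, 5′ to 3′ on the strand of the gene, with the hexamer in capitals.
Nop2: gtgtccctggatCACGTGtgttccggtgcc
Utp20: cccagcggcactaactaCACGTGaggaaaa
Pes1: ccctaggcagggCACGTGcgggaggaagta
Mybbp1a: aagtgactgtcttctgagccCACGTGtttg
Tsr1: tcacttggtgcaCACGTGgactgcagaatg
Nle1: tcggttctcctcCACGTGgggacgcaggat
Wdr43: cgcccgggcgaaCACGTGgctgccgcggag
The hexamer of Nop2 (30 bases printed from chr6:125131811-125131840, plus strand) begins 60 bases before the start, upstream of the gene. The others lie within the first bases of the transcript, beginning 2 bases after the start in Pes1 (chr11:3963965-3963994, plus strand) and 37 bases after it in Utp20 (chr10:88826765-88826794, minus strand). In Mybbp1a (chr11:72441347-72441376, plus strand) the distance is 40 bases, in Tsr1 (chr11:74898092-74898121, plus strand) 24, in Nle1 (chr11:82908355-82908384, minus strand) 23 and in Wdr43 (chr17:71616220-71616249, plus strand) 17. All coordinates of the sites cover the 30 bases printed. Distances are counted to the first base of the hexamer from the start used by the promoter window. In Nle1 and Wdr43 that start lies inside the span of the gene (chr11:82900768-82908446 and chr17:71616178-71659031), so the sites lie further from the outer gene start. A match of letters describes the sequence and shows no binding. Among the 7 genes with the hexamer, Mybbp1a and Nle1 rose with the drug at day 14, and the other 5 did not pass that test; 12.9% of all genes and 32.5% of the members rose there. Mybbp1a failed in 14 of 26 alternatives and Nle1 in 8.

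Libraries held 26134894 to 58823116 deposited counts in all. Levels are given as CPM, counts scaled to a common library size after TMM scaling, and they depend on gene length, so they are compared between libraries and not between genes. T cell identity was present in every group: all 10 CD8 T cell markers had counts, with a summed level of 6836 to 8131 CPM in BMF and 5812 to 8060 CPM in BAR at day 10, and of 8779 to 10492 CPM in BMF and 7105 to 7724 CPM in BAR at day 14. In edgeR 7 of the 10 were lower with the drug at day 14, and 7 rose with time in BMF. Transcripts of other marrow cells were present too. The 12 neutrophil markers summed to 2498 to 9306 CPM in BMF and 4524 to 13050 CPM in BAR at day 10, and to 2724, 15523 and 21770 CPM in BMF and 38294 to 50228 CPM in BAR at day 14. Erythroid markers summed to 1.35 to 5.22 CPM in BMF and 141 to 288 CPM in BAR at day 14, with Hba-a1, Hba-a2, Hbb-bt and Hbb-bs listed at 0 in every library. Monocyte and macrophage markers summed to 347 to 1562 CPM in BMF and 3638 to 4440 CPM in BAR at day 14. A fit with the neutrophil sum as a covariate is given beside the results, and the part of the other marker lists was not tested. In bulk samples, fewer cells of a type and less RNA per cell cannot be told apart.

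The share of counts on Rn45s differed most among the undrugged libraries of day 10. Rn45s took 5.53%, 4.83%, 5.81%, 2.73% and 1.15% of counts in BMF replicates 1 to 5 and 1.22%, 1.22%, 1.43%, 1.25% and 1.4% in the BAR replicates. Of the 5 BMF libraries, 4 lay above every BAR library and replicate 5 lay below them all. The means were 4.01 ± 2% and 1.3 ± 0.102% (SD over 5 libraries in each arm; p = 0.0476 by an exact two-sided permutation test), and p was 0.0873 when any 1 BAR library was left out. At day 14 Rn45s took 2.52%, 2.4% and 1.7% in BMF and 2.38%, 0.714% and 1.28% in BAR, and the arms overlapped (exact two-sided permutation p = 0.2, with 0.1 the smallest possible). Counts on another gene, Lars2, took 3.57%, 3.5%, 5.73%, 2.54% and 0.848% in BMF replicates 1 to 5 at day 10. In BAR at day 10 Lars2 took 0.639% to 0.85%. Why the shares of Lars2 and Rn45s were high in the same libraries was not tested. The libraries were made from polyA RNA, which ribosomal RNA is not. The Rn45s share is therefore a property of the library as well as of the cells, and these cannot be told apart.

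Libraries did not fall in the same order by the summed level of the 40 members as by the Rn45s share. It ran from 5649 to 6348 CPM in BMF at day 10, from 4859 to 6316 CPM in BAR at day 10, from 4249 to 4619 CPM in BMF at day 14 and from 4559 to 5106 CPM in BAR at day 14. BMF replicate 3 of day 10 had the highest Rn45s share and the highest sum, while BAR replicate 1 of day 10, with a share of 1.22%, came next at 6316 CPM. Every day 14 library of the BMF arm lay below every day 10 library of that arm. Npm1 and Ncl, with mean levels of 1610 and 1077 CPM in BMF at day 10, weigh heavily in the sum; at day 14 their means were 1102 and 685 CPM in BMF and 1122 and 665 CPM in BAR, so the day 14 difference in the sum lies in the other members.

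**Figure D1:**
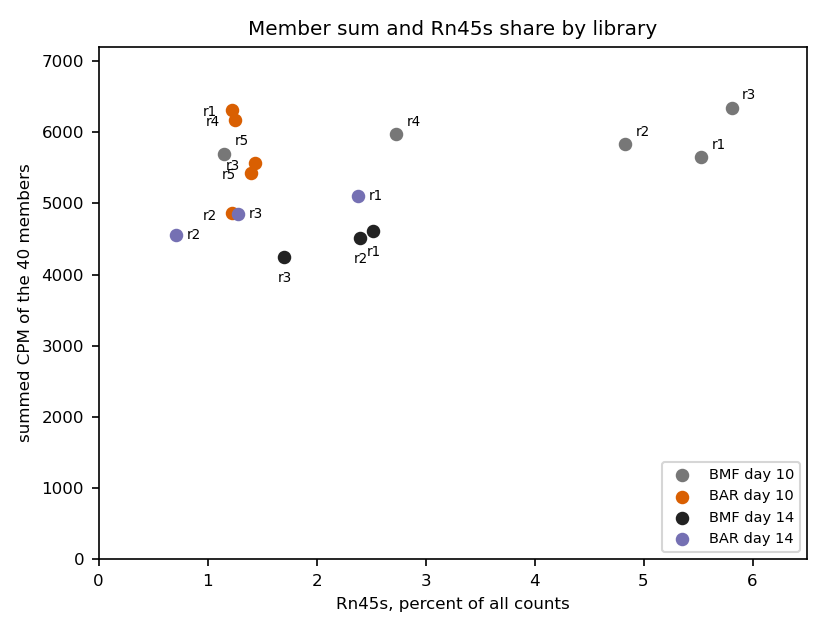
Summed CPM of the 40 members (vertical axis) against the percent of counts on Rn45s (horizontal axis), 1 point per library, coloured by group and labelled by replicate. BMF libraries of day 10 spread from 1.15% to 5.81% Rn45s at sums of 5649 to 6348 CPM, and the 6 day 14 libraries sit between 4249 and 5106 CPM.

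**Figure D2:**
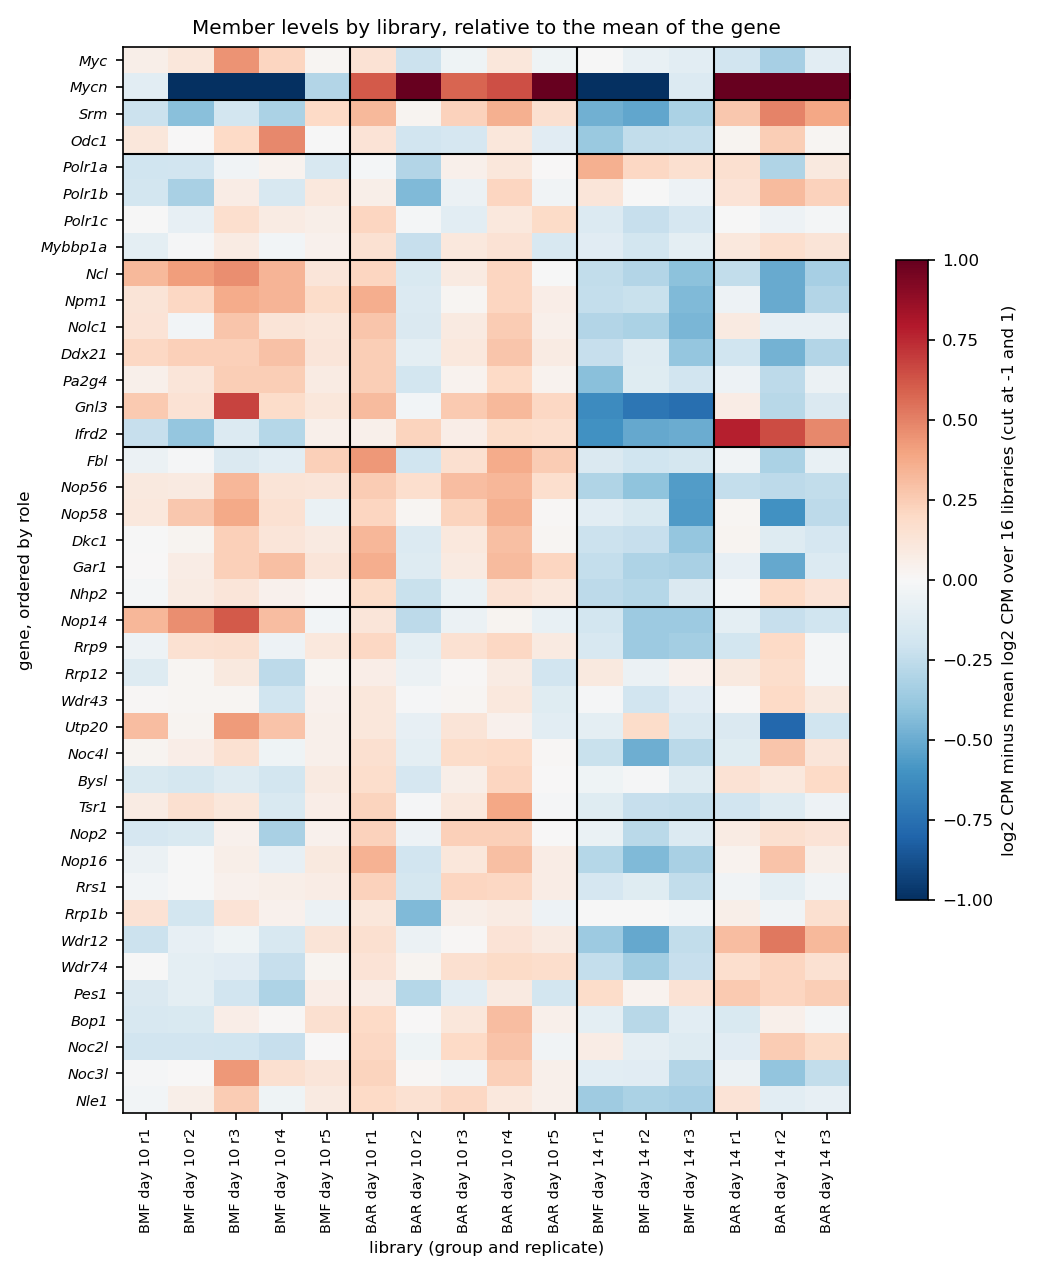
Level of each member (rows, grouped by role) in each library (columns, grouped by arm and day), as log2 CPM minus the mean over the 16 libraries of that gene, with colours cut at -1 and 1. The BMF day 14 columns are mostly blue, the BAR day 14 columns are mixed, and Mycn, Srm and Ifrd2 stand out as high in BAR at day 14.

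At day 10, 6 of the 40 members (15%) differed between baricitinib and no drug, close to the share of all genes tested (14.4%). Mycn had a log2 fold change of 1.74, and the others that passed lay between -0.40 and 0.40. In edgeR's quasi-likelihood test over all 14862 genes, 5 of the 40 members rose (6.49% of all genes tested rose) and 1 fell (7.94% of all genes fell). The risers were Mycn, Srm, Ifrd2, Wdr74 and Noc2l, and Nop14 fell. The median log2 fold change of the members was 0.04, against 0.00 for all genes tested. Libraries of the arms did not overlap for 3 members, all higher in BAR (3.8% of all genes), and for none lower (4.11%); the 3 were Mycn, Ifrd2 and Wdr74. The Rn45s share moved with this comparison, as given above: with the log2 Rn45s share as a covariate no member passed, and without BMF replicates 1, 2 and 3, the libraries richest in Rn45s, none passed either. Calls over all genes went from 2145 to 86 and 111 in those fits. The log2 fold change of Mycn was 1.5 and 1.51 there, that of Ifrd2 0.25 and 0.24, that of Wdr74 0.18 and 0.23, and that of Srm 0.17 and 0.26. In the same fits 4 and 4 members were higher and 0 and 1 lower at an unadjusted p under 0.05. The shares of all genes at that p are not given for those fits. On all libraries DESeq2 called 8 members and 2838 of all genes. There limma voom called 6 members and 1794 of all genes, and edgeR 6 and 2145. Leaving out BMF replicate 5 alone, the library poorest in Rn45s, raised the number to 10, with 3615 calls over all genes.

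At day 14 the difference was broader and in one direction. Of the 40 members 13 rose with baricitinib (12.9% of all genes tested rose) and none fell (12.2% of all genes fell). At an unadjusted p under 0.05 in edgeR 17 were higher and 1 lower (19% and 18.8% of all genes). DESeq2 called 15 higher and voom 13, neither with a member lower. Over all genes, in either direction, DESeq2 made 4299 calls and voom 3962, against 3738 in edgeR. The risers came from each of the 7 roles: Mycn, Srm and Odc1, Mybbp1a, Nolc1, Gnl3 and Ifrd2, Nhp2, Noc4l, and Nop16, Wdr12, Wdr74 and Nle1. The RNA polymerase I role was represented by the linked gene Mybbp1a alone, and Polr1a, Polr1b and Polr1c did not pass. The median log2 fold change was 0.16, against -0.01 for all genes, and 34 of 40 members had a value above 0 (47.3% of all genes). For 22 members every BAR library lay above every BMF library (21.8% of all genes), and for Myc and Polr1a every one lay below (21.5% of all genes). Without BMF replicate 2 of day 14 the number that rose was 7, with calls over all genes at 2119 in place of 3738. Srm, Gnl3, Ifrd2, Nop16, Wdr12 and Wdr74 passed under all 26 alternatives tried, and Mybbp1a, at an adjusted p of 0.0488, failed under 14. The summed neutrophil, erythroid and monocyte markers were also higher in these BAR libraries, as given above. By edgeR 5 of 5 tested erythroid markers rose, and 0 of 12 neutrophil markers passed. Of 11 monocyte and macrophage markers 5 rose and 3 fell. Lyz2, at a mean of 3610 CPM in BAR, made up most of the monocyte and macrophage sum. With the neutrophil sum as a covariate 10 members rose, and calls over all genes went from 3738 to 1012. The arms do not overlap in that sum at day 14, at 2724 to 21770 CPM in BMF and 38294 to 50228 CPM in BAR. The sum and the drug largely coincide there, so this fit cannot tell them apart. Most CD8 T cell markers were lower in these libraries, as given above.

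**Figure D3:**
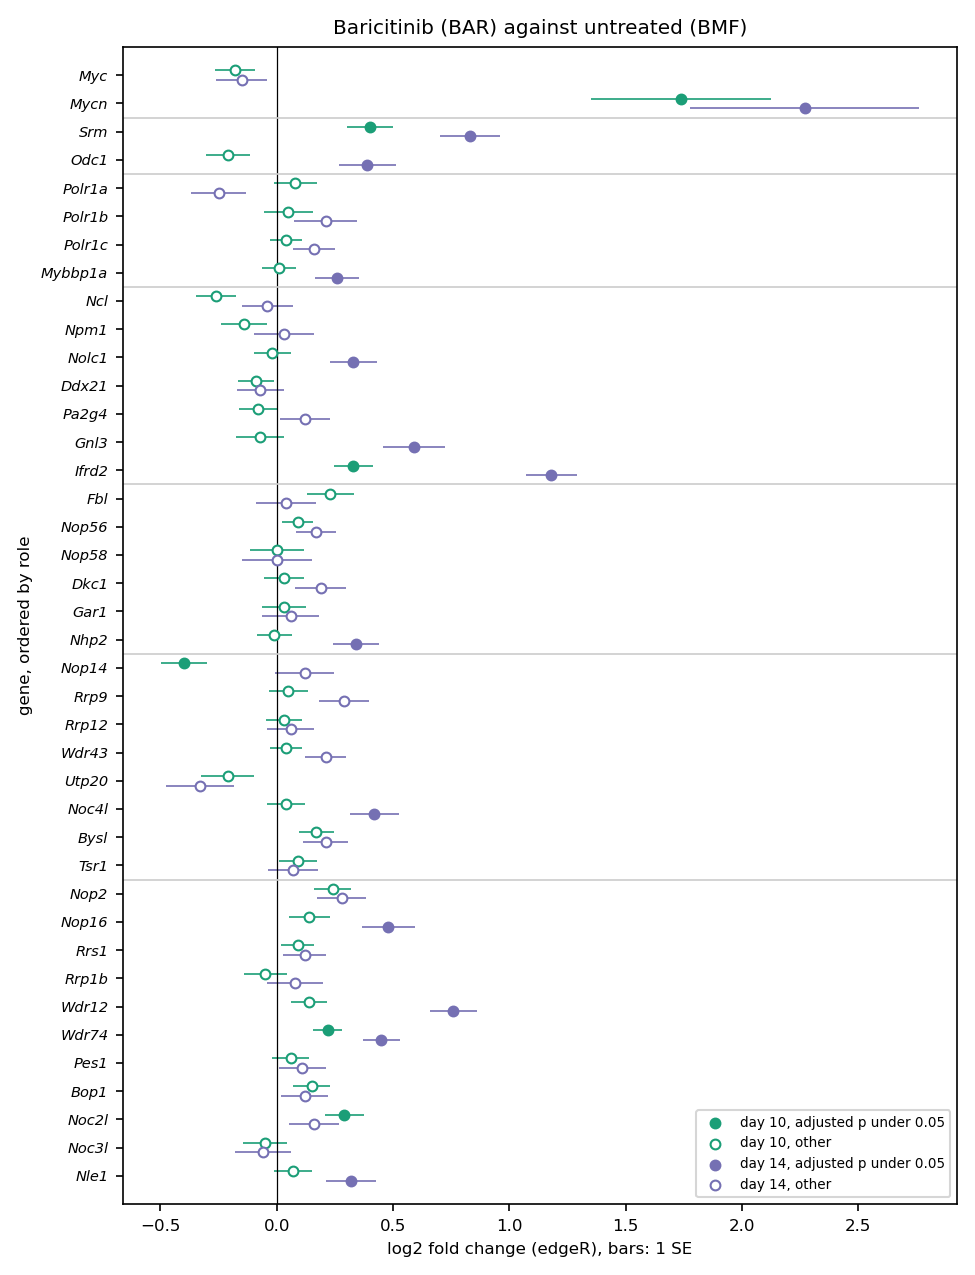
Log2 fold change of BAR against BMF for each member (rows, grouped by role) at day 10 (green) and day 14 (purple), with bars of 1 SE and filled symbols where the edgeR adjusted p was under 0.05. Mycn lies at 1.74 and 2.27, Ifrd2 at 0.33 and 1.18, and most large subunit factors lie to the right of 0 at day 14.

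Myc itself was not among the risers. Its level was 113, 117, 148, 126 and 110 CPM in BMF and 120, 93.2, 105, 117 and 105 CPM in BAR at day 10, and 108, 103 and 101 CPM in BMF and 94.8, 86.1 and 101 CPM in BAR at day 14. The arms overlapped at day 10, and at day 14 the BAR libraries all lay slightly below the BMF libraries. The log2 fold change was -0.18 (95% interval -0.35 to -0.02, adjusted p = 0.152) at day 10 and -0.15 (-0.37 to 0.07, adjusted p = 0.344) at day 14 in edgeR. The day 14 value was 0.09 with the neutrophil marker sum as a covariate.

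Mycn, the paralogue of Myc better known from neural and progenitor cells (chr12:12936093-12941836), rose in both tests from a very low level. It was at 0.449, 0.158, 0.0648, 0.213 and 0.394 CPM in BMF and 0.739, 1.14, 0.724, 0.754 and 1.07 CPM in BAR at day 10. At day 14 it was at 0.212, 0.198 and 0.439 CPM in BMF and 1.5, 1.05 and 1.62 CPM in BAR. The arms did not overlap on either day, and the values rest on 2 to 20 counts per BMF library and 37 to 71 counts per BAR library. The log2 fold change was 1.74 (SE 0.387, adjusted p = 0.00831) at day 10 and 2.27 (SE 0.492, adjusted p = 0.00288) at day 14 in edgeR, and with the neutrophil marker sum as a covariate the day 14 value was 1.43 (adjusted p = 0.141). Progenitor markers (Kit, Cd34, Gata2, Mecom and Meis1) summed to 9.16 to 15.9 CPM in BMF and 33.1 to 41.3 CPM in BAR at day 14, but to 12.1 to 23.7 CPM in BMF and 8.85 to 19 CPM in BAR at day 10. Other lists moved with the drug at day 10. In edgeR 9 of 10 B cell, 4 of 5 erythroid, 4 of 10 dendritic and 5 of 11 monocyte and macrophage markers rose. In these 4 lists 0 fell. B cell markers summed to 9.07 to 26.5 CPM in BMF and 24.1 to 385 CPM in BAR at day 10. The part of these lists and of the progenitor markers in the Mycn result was not tested.

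The polyamine enzymes are classical MYC targets, and both rose at day 14. Srm, spermidine synthase (chr4:148591513-148594619), was at 62.5, 54.1, 63.9, 58 and 83 CPM in BMF and 90.8, 73.9, 85.1, 92.7 and 81 CPM in BAR at day 10, and at 51.8, 50.4 and 58.1 CPM against 87.3, 102 and 94.9 CPM at day 14. The arms overlapped at day 10 through BMF replicate 5 and were apart at day 14. The log2 fold change was 0.40 (SE 0.0987, adjusted p = 0.0149) and 0.83 (SE 0.128, adjusted p = 0.000252) in edgeR. Odc1, ornithine decarboxylase, the rate-limiting enzyme of the pathway (chr12:17544808-17551502), was at 84.2, 78.1, 89.5, 109 and 77.6 CPM in BMF and 85.5, 68.4, 69.3, 84.3 and 72.2 CPM in BAR at day 10. At day 14 it was at 60.1, 65.8 and 65.9 CPM in BMF and 79.3, 92.2 and 79.2 CPM in BAR, with no overlap. Its log2 fold change was -0.21 (adjusted p = 0.146) at day 10 and 0.39 (SE 0.122, adjusted p = 0.0273) at day 14 in edgeR.

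RNA polymerase I genes moved little with the drug. The catalytic subunit gene Polr1a was at 36.2 to 42.5 CPM in BMF (median 37.2) and 33.9 to 44.9 CPM in BAR (median 41.6) at day 10, where the arms overlapped (log2 0.08, edgeR adjusted p = 0.57). At day 14 it was at 53.1, 48 and 46.5 CPM in BMF and 46.3, 33.7 and 44.5 CPM in BAR (log2 -0.25, 95% interval -0.48 to -0.01, edgeR adjusted p = 0.136). The unadjusted edgeR p was 0.0519, so the test itself did not exclude 0, although the narrower normal interval did. Polr1b, the second large subunit, and Polr1c, shared with RNA polymerase III, had log2 values of 0.21 and 0.16 at day 14 and did not pass. Mybbp1a, a nucleolar protein that binds MYB and is linked to ribosomal RNA synthesis, was at 99, 94 and 99.7 CPM in BMF and 115, 120 and 117 CPM in BAR at day 14 (log2 0.26, SE 0.0948, edgeR adjusted p = 0.0488). Its arms were apart at day 14, whereas at day 10 they overlapped at 100 to 113 and 91.2 to 119 CPM.

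Among the nucleolar and growth-linked proteins the response was uneven. Ifrd2, which in rabbit reticulocytes binds ribosomes that are not translating (chr9:107587718-107593038), had the smallest p of any member at day 14. It was at 19.1, 17.1, 20.4, 18.4 and 23.2 CPM in BMF and 23.2, 26.1, 23.5, 25.4 and 25.2 CPM in BAR at day 10, and at 14.7, 15.7 and 15.9 CPM against 38.4, 35.2 and 31.2 CPM at day 14. No BAR library lay below a BMF library on either day, and at day 14 the gap was wide. The log2 fold change was 0.33 (SE 0.0836, adjusted p = 0.0167) and then 1.18 (SE 0.109, adjusted p = 6.52e-06), a 2.26-fold difference in edgeR. Gnl3, nucleostemin, a nucleolar GTP-binding protein of proliferating and stem cells (chr14:31012433-31019131), was at 37.9, 35.5 and 34.7 CPM in BMF and 61.6, 48.1 and 52.8 CPM in BAR at day 14 (log2 0.59, SE 0.134, edgeR adjusted p = 0.00416), with the arms apart. Nolc1, a chaperone of snoRNPs, rose by 0.33 at day 14. The abundant nucleolar proteins did not pass: nucleolin (Ncl) had a log2 value of -0.04 (95% interval -0.26 to 0.18), nucleophosmin (Npm1) 0.03 (-0.23 to 0.28), the helicase Ddx21 -0.07 and Pa2g4, a growth regulator that binds ribosomes, 0.12.

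SnoRNPs methylate and pseudouridylate ribosomal RNA at sites that their small nucleolar RNA selects by base pairing, while the proteins catalyse the reaction or form the scaffold; 1 of 6 rose at day 14. Nhp2, a core protein of the pseudouridylation particles (chr11:51619773-51623718), was at 117, 115 and 127 CPM in BMF and 138, 161 and 154 CPM in BAR at day 14. The arms were apart, with a log2 fold change of 0.34 (SE 0.0981, edgeR adjusted p = 0.0181), against -0.01 at day 10. Its partners had log2 values of 0.19 (Dkc1, the pseudouridine synthase, adjusted p = 0.227) and 0.06 (Gar1, adjusted p = 0.78) in edgeR. Of the methylation particle, the methyltransferase fibrillarin (Fbl) was at 0.23 at day 10 (adjusted p = 0.133) and 0.04 at day 14, and its scaffolds Nop56 and Nop58 at 0.17 and 0.00 at day 14.

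Of the small subunit factors, Nop14 moved at day 10 and Noc4l at day 14. Nop14, a component of the early small subunit processome (chr5:34638536-34660148), was at 46.6, 51.1, 56.7, 45.8 and 36.3 CPM in BMF and 40.3, 30.9, 35.5, 37.7 and 35.2 CPM in BAR at day 10. BMF replicate 5, the BMF library with the lowest Rn45s share, lay within the BAR range and the other 4 BMF libraries above it. The log2 fold change was -0.40 (SE 0.0986, adjusted p = 0.0149) in edgeR. With the Rn45s share as a covariate or without BMF replicates 1, 2 and 3, as for all members called at day 10, the call was lost. Noc4l, a nucleolar partner of Nop14 (chr5:110648419-110653382), was at 42.9, 35.7 and 41.5 CPM in BMF and 46, 60.6 and 54.2 CPM in BAR at day 14 (log2 0.42, SE 0.106, edgeR adjusted p = 0.00795), with no overlap. The other 6 small subunit factors (Rrp9, Rrp12, Wdr43, Utp20, Bysl and Tsr1) ran from -0.33 for Utp20 to 0.29 for Rrp9 at day 14 and did not pass.

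Large subunit factors gave 4 of the 13 risers of day 14. Wdr12 (chr1:60071361-60098500), which forms the PeBoW complex with Pes1 and Bop1, was at 45.8, 41.3 and 49.8 CPM in BMF and 72.9, 85 and 73.8 CPM in BAR at day 14. The arms were far apart, and the log2 fold change was 0.76 (SE 0.0998, adjusted p = 6.83e-05), against 0.14 (adjusted p = 0.241) at day 10 in edgeR. Its complex partners Pes1 and Bop1 had log2 values of 0.11 (95% interval -0.09 to 0.31) and 0.12 (-0.08 to 0.32) at day 14; whether Wdr12 differed from them was not tested. Wdr74, a nucleolar assembly factor (chr19:8735795-8740624), was at 37.1, 34.7, 34.3, 31.7 and 37.8 CPM in BMF and 40.9, 37.9, 41.4, 42.4 and 41.9 CPM in BAR at day 10, and at 31.4, 29.2 and 31.7 CPM against 41.7, 43 and 41.2 CPM at day 14. The arms did not overlap on either day (log2 0.22, adjusted p = 0.0267 and log2 0.45, adjusted p = 0.000728 in edgeR). Nop16 rose by 0.48 and Nle1, which helps release assembly factors from the maturing subunit, by 0.32. Noc2l rose by 0.29 at day 10 (adjusted p = 0.0292) and was at 0.16 at day 14 (adjusted p = 0.305). Nop2, an RNA methyltransferase, missed the threshold on both days with log2 values of 0.24 and 0.28 and adjusted p values of 0.0534 and 0.0551 in edgeR. Rrs1, Rrp1b and Noc3l ran from -0.06 to 0.12 at day 14.

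Mycn, Srm, Ifrd2 and Wdr74 rose in both drug comparisons, which is 80% of the 5 members that rose at day 10 and 30.8% of the 13 that rose at day 14; these comparisons share no library. Over all genes 325 rose at both days (2.19% of those tested), which is 33.7% of the genes that rose at day 10 and 16.9% of those that rose at day 14. For 5 members the difference between the drug effects itself passed, always upward from day 10 to day 14 (5% of all genes passed upward and 5.33% downward, 10.3% in all). The value was above 0 for 33 of 40 members (51.9% of all genes). The difference in log2 fold change was 0.85 for Ifrd2 (SE 0.137, adjusted p = 0.00129), 0.62 for Wdr12 (SE 0.126, adjusted p = 0.00541), 0.66 for Gnl3 (SE 0.169, adjusted p = 0.0199) and 0.59 for Odc1 (SE 0.154, adjusted p = 0.0212) in edgeR. It was 0.52 for Nop14 (SE 0.161, adjusted p = 0.0474), a call that failed in 19 of 25 alternatives. No member passed downward in edgeR, DESeq2 or voom. At an unadjusted p under 0.05 in edgeR 12 were higher and 1 lower (12.9% and 13.3% of all genes). Without BMF replicate 1 or 2 or BAR replicate 2 of day 14 the number that passed was 3, 2 and 3, and without the 3 BMF libraries richest in Rn45s it was 2. Calls over all genes were 846, 679, 827 and 413 in those fits, against 1535. Ifrd2 and Wdr12 passed in all 25 alternatives. For Mycn the difference was 0.53 (95% interval -0.69 to 1.75), which leaves a wide range of change between the days.

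**Figure D4:**
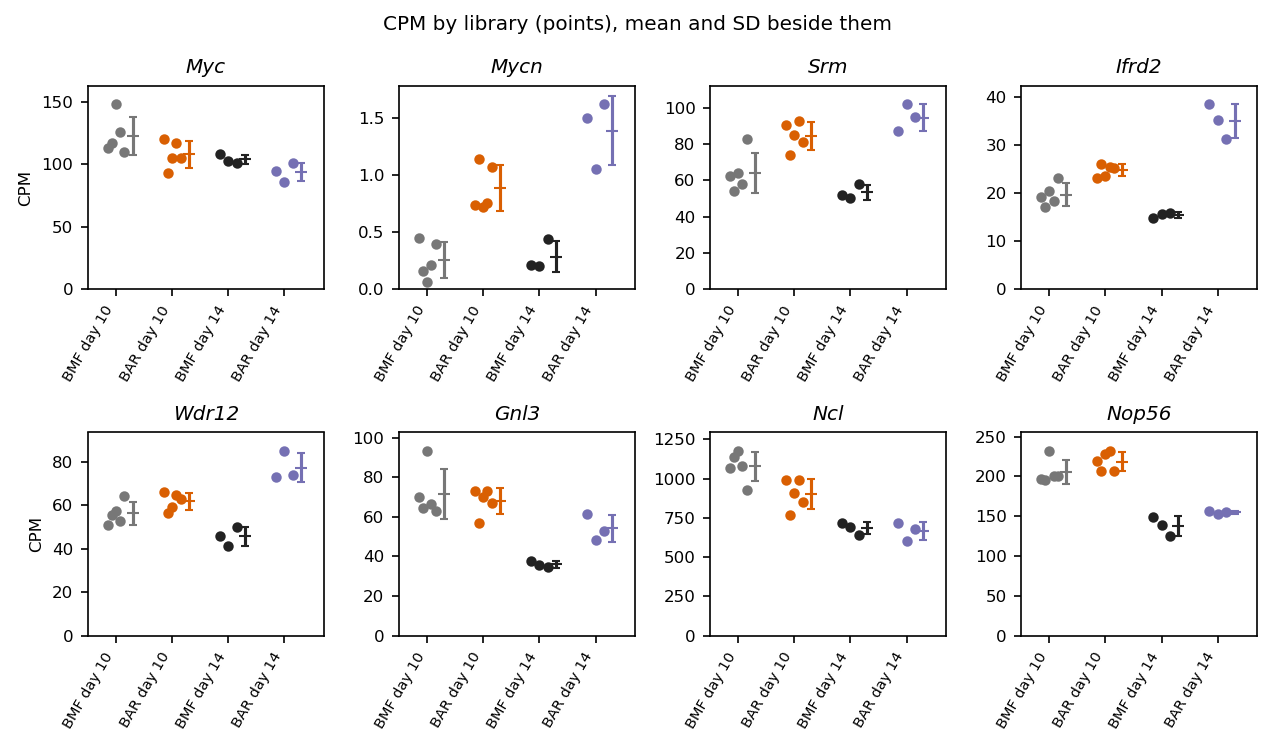
CPM of 8 members in every library (points) with the mean and SD of each group beside them. Ifrd2 and Wdr12 are lowest in BMF and highest in BAR at day 14, Gnl3 and Nop56 drop from day 10 to day 14 in both arms, and Myc stays between 86.1 and 148 CPM.

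Without the drug, most of the programme was lower at day 14 than at day 10. Of the 40 members 23 fell (20.9% of all genes tested fell) and 2 rose (17.6% of all genes rose), and the median log2 fold change was -0.27, against -0.05 for all genes. All 7 nucleolar proteins fell, as did 5 of 6 snoRNP proteins, 4 of 8 small subunit factors, 5 of 11 large subunit factors, Odc1 and Polr1c. For 25 members every day 14 library lay below every day 10 library (19.6% of all genes). Of all genes 38.5% passed in either direction. The count of called members, 25 in the full fit, was 16 without BMF replicate 2 of day 14. It was 13, all falls, without BMF replicates 1, 2 and 3 of day 10. Calls over all genes were 4649 and 2459 in those fits, against 5728. With the log2 Rn45s share as a covariate 23 members were called, 1 higher and 22 lower, with 4680 calls over all genes. The mean Rn45s share in BMF was 4.01% at day 10 and 2.21% at day 14 (exact two-sided permutation p = 0.196). Markers of cell types moved in the same comparison: 7 of 10 CD8 T cell markers rose, with summed levels that did not overlap, while 4 of 5 erythroid and 5 of 10 dendritic markers fell. Their part in the members' falls was not tested.

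The steepest fall was that of Gnl3. It was at 70.2, 64.6, 93.4, 66.4 and 63.1 CPM at day 10 and at 37.9, 35.5 and 34.7 CPM at day 14, and the days were far apart (log2 -0.99, SE 0.123, edgeR adjusted p = 1.96e-05). Ncl was at 926 to 1176 CPM (median 1081) and then at 718, 694 and 641 CPM (log2 -0.65, SE 0.102, edgeR adjusted p = 0.000123). Npm1 went from 1483 to 1748 CPM (median 1567) to 1149, 1158 and 999 CPM (log2 -0.55, SE 0.118, edgeR adjusted p = 0.00167). Neither overlapped between days. Nolc1, Ddx21, Pa2g4 and Ifrd2 fell by 0.48, 0.46, 0.39 and 0.35.

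The snoRNP scaffold Nop56 (chr2:130274367-130279313) was at 197, 196, 232, 201 and 200 CPM at day 10 and 149, 139 and 125 CPM at day 14 without the drug. The days did not overlap (log2 -0.57, SE 0.0781, edgeR adjusted p = 4.03e-05). Nop58, Gar1, Dkc1 and Nhp2 fell by 0.44, 0.44, 0.38 and 0.27, while Fbl was at -0.16 and did not pass. Nop14 was at 36.3 to 56.7 CPM at day 10 and 32.6, 28.8 and 28.7 CPM at day 14 (log2 -0.65, SE 0.117, edgeR adjusted p = 0.000377), with every day 14 library lowest. Nle1 was at 12.3, 13.1, 15, 12.2 and 13.4 CPM and then 9.84, 10.1 and 10 CPM (log2 -0.40, SE 0.0957, edgeR adjusted p = 0.00359). Odc1 fell by 0.46 (adjusted p = 0.00394) and Polr1c by 0.23 (adjusted p = 0.0322) in edgeR.

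Polr1a and Pes1 went the other way. Polr1a (chr6:71909053-71979435) was at 36.2, 36.4, 40.6, 42.5 and 37.2 CPM at day 10 and 53.1, 48 and 46.5 CPM at day 14 in the BMF arm, with no overlap (log2 0.35, SE 0.105, edgeR adjusted p = 0.0141). Pes1 (chr11:3963975-3980004) was at 108 to 140 CPM (median 121) and then 152, 137 and 148 CPM, overlapping through 1 library (log2 0.25, SE 0.0907, edgeR adjusted p = 0.0348). Without BMF replicates 1, 2 and 3 of day 10 neither passed. Myc had a log2 value of -0.24 (95% interval -0.43 to -0.04, edgeR adjusted p = 0.0674), with every day 14 library below every day 10 library.

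Under baricitinib fewer members changed between the days: 11 fell (19.8% of all genes tested fell) and 3 rose (19.2% of all genes rose), with a median of -0.11 against -0.04 for all genes. The falls were Ncl, Npm1, Ddx21, Gnl3, Fbl, Nop56, Nop58, Gar1, Utp20, Tsr1 and Noc3l. In all 14 members passed, and 39.1% of all genes did. For 3 members every day 14 library lay above every day 10 library (20.1% of all genes) and for 6 below (21.2% of all genes), so separation of libraries was no more common than among all genes. The number called was 5 without BAR replicate 2 of day 14, 8 without BAR replicate 3, and 1 with the neutrophil marker sum as a covariate. Calls over all genes were 3842, 4496 and 1860 in those fits, against 5808. In the last of them 5 members were higher and 2 lower at an unadjusted p under 0.05, and the shares of all genes at that p are not given for it. The BAR libraries of the 2 days do not overlap in that sum, at 4524 to 13050 CPM and 38294 to 50228 CPM, so the sum and the day largely coincide in this arm.

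Nop56 kept its fall under every one of the 26 alternatives: it was at 219, 207, 228, 232 and 207 CPM at day 10 and 156, 153 and 155 CPM at day 14 in BAR, with no overlap (log2 -0.50, SE 0.0778, edgeR adjusted p = 0.000124). Ncl and Ddx21 both fell by 0.44. Tsr1, a late factor of the small subunit (chr11:74898080-74909340), was at 43.5, 36.9, 40.1, 48.7 and 37 CPM and then 32.6, 34.1 and 35.9 CPM (log2 -0.27, SE 0.095, edgeR adjusted p = 0.0308). Its day 14 libraries all lay below those of day 10, the nearest by 1 CPM.

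The 3 risers under the drug were Ifrd2, Wdr12 and Pes1. Ifrd2 rose by 0.50 (SE 0.0946, adjusted p = 0.000606) where it had fallen by 0.35 without the drug, and Wdr12 rose by 0.32 (SE 0.0878, adjusted p = 0.00876) where it had fallen by 0.30, all in edgeR. These opposite courses are the same contrast as the difference between drug effects given above. Pes1 rose in both arms, by 0.31 with the drug and 0.25 without. Srm was at 0.16 (adjusted p = 0.271), Polr1b at 0.27 (adjusted p = 0.088) and Myc at -0.20 (adjusted p = 0.114) in edgeR, and none of them passed.

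**Figure D5:**
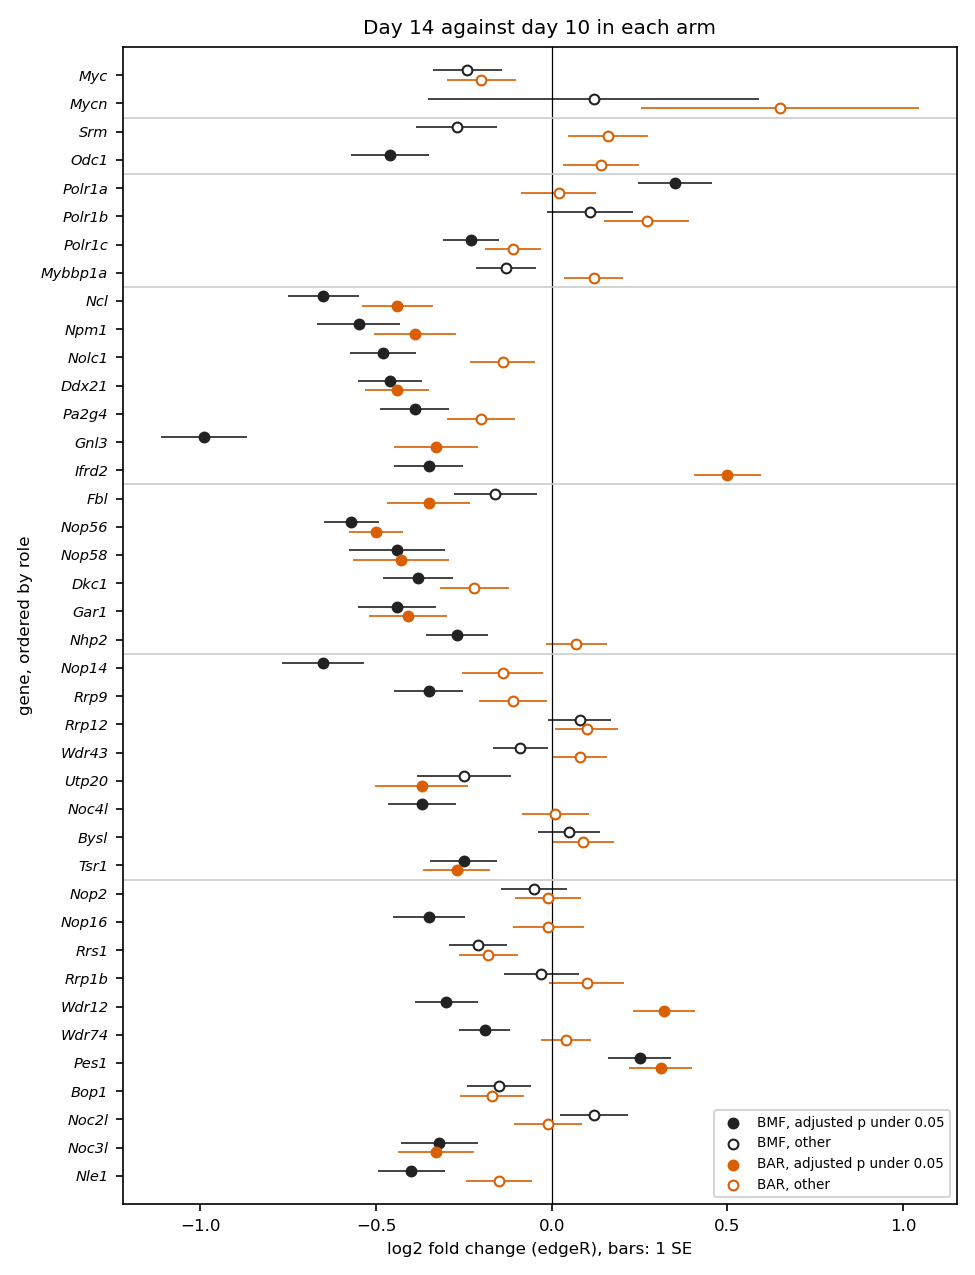
Log2 fold change of day 14 against day 10 for each member (rows, grouped by role) in BMF (black) and BAR (orange), with bars of 1 SE and filled symbols where the edgeR adjusted p was under 0.05. Nucleolar and snoRNP genes lie left of 0 in BMF, Gnl3 at -0.99, and Ifrd2 and Wdr12 lie on opposite sides of 0 in the arms.

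Across the 5 comparisons 9 members were never called: Myc, Polr1b, Rrp12, Wdr43, Bysl, Nop2, Rrs1, Rrp1b and Bop1. Wdr43, a small subunit processome component, lay within 153 to 201 CPM in all 16 libraries, and Rrp12, which takes part in subunit export, within 29.5 to 39.9 CPM. The group ranges of both overlapped between days in each arm. With the drug at day 14, Wdr43 was at 177 to 201 CPM against 154 to 174 CPM in BMF, apart but not passing (log2 0.21, edgeR adjusted p = 0.0882). A missed threshold does not show that their levels were the same.

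Further genes of the pathway gave a mixed picture. Of 45 other large subunit factors 5 rose and 1 fell with the drug at day 14, with Mrto4 smallest in p (log2 0.43, adjusted p = 0.00241), and 3 rose and 20 fell with time in BMF, with Ppan smallest in p (-0.76, adjusted p = 2.79e-05) and Ddx55 steeper (-0.83, adjusted p = 0.000342). Of 43 other small subunit factors 4 rose and 3 fell with the drug at day 14, with Pno1 at 0.47 (adjusted p = 0.00056), and 2 rose and 12 fell with time in BMF, with Nol6 rising by 0.67. At day 10 the drug left 1 higher and 4 lower in the large subunit list and 2 higher and 6 lower in the small one, all by edgeR. These shares can be read against the same percentages of all genes given above for the members.

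Of 16 other genes of the RNA polymerase I system, Cd3eap was the only one higher with the drug at day 14 (log2 0.36). Znrd1 and Polr1d were lower (-0.33 and -0.46). Of all genes tested, 12.9% rose and 12.2% fell in that comparison. Taf1d, a subunit of the factor that recruits the polymerase to ribosomal DNA, fell with time in both arms, by 1.44 in BMF and 1.15 in BAR, and was lower with the drug at day 10 (-0.57, edgeR adjusted p = 0.00461). Its level was 96.9 ± 19.9 CPM in BMF against 65.4 ± 3.9 CPM in BAR at day 10 (SD, n = 5 each) and 35.8 ± 1.24 and 29.4 ± 3.25 CPM at day 14 (SD, n = 3 each). Of 10 other snoRNP factors tested by edgeR, 1 rose (Ruvbl2) and 1 fell (Tcof1) with the drug at day 14. With time in BMF none of them rose (17.6% of all genes did) and 2 fell, Naf1 and Nufip1 (20.9% of all genes did).

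Some partners and antagonists of MYC changed. Of 11 such genes 2 rose and 3 fell with the drug at day 14 (12.9% and 12.2% of all genes). Mxd3, a MAX partner of the MXD family that opposes MYC, was at 21.3 ± 1.89 CPM in BMF against 27 ± 2.25 CPM in BAR at day 10 (SD, n = 5 each) and at 19.7 ± 2.42 and 11.7 ± 0.389 CPM at day 14 (SD, n = 3 each). It rose with the drug by 0.34 at day 10 and fell by 0.75 at day 14, and the difference between these effects was -1.09 (SE 0.14, adjusted p = 0.000481) in edgeR. Mxi1, of the same family, was higher with the drug at day 14 (0.46, adjusted p = 0.0059) and rose with time in both arms, by 0.54 in BMF and 0.91 in BAR.

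Of 31 tested metabolic and growth targets of MYC 11 rose and 1 fell with the drug at day 14 (12.9% and 12.2% of all genes), with a median of 0.21 against -0.01 for all genes, and 3 rose and 12 fell with time in BMF (17.6% and 20.9% of all genes), with a median of -0.21 against -0.05. The transferrin receptor gene Tfrc, which is also high in red cell precursors, was at 24.8 ± 11 CPM in BMF against 84.7 ± 24.9 CPM in BAR at day 14 (SD, n = 3 each; log2 1.77, SE 0.3, edgeR adjusted p = 0.00105). Eif4ebp1, which restrains cap-dependent translation, was at 15.6 ± 6.8 and 52.5 ± 16.2 CPM (log2 1.75, SE 0.37, edgeR adjusted p = 0.00451). Erythroid markers rose in the same libraries, as given above, and their part in these values was not tested.

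Ribosomal proteins, the structural parts that these factors assemble, were lower with the drug in nearly every case that passed the test. Of 78 tested, 1 rose and 31 fell with the drug at day 10 and 1 rose and 18 fell at day 14 in edgeR (7.94% and 12.2% of all genes fell), with medians of -0.28 and -0.36. Their summed level was 71412 to 86323 CPM in BMF and 56203 to 77305 CPM in BAR at day 10, and 74263 to 81497 and 51109 to 69521 CPM at day 14, where the arms did not overlap. At day 10, calls over all genes went from 2145 to 86 with the Rn45s share as a covariate. Counts for this list are not given for that fit. Genes of this family have many processed copies in the genome and could have shared reads with them, so their values are uncertain.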

How the data were processed

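The authors deposited raw counts per gene symbol, whole numbers with no normalisation, for 16 libraries in 4 groups taken from the treatment labels. Per the submitters' processing notes, reads were aligned to mm10 with HISAT2 2.0.5. Not given in the sources used here were the counting tool, its annotation and its strand setting, so reads of overlapping genes cannot be told apart. Per the labels' protocols, the kit was SMART-Seq mRNA LP, with sequencing on an Illumina NovaSeq. The deposited counts held 24421 entries; 27 carried dates in place of symbols (0.234% to 0.293% of counts) and were left out, which left 24394 genes. Totals over all 24421 entries ran from 26134894 to 58823116 counts, and their size limits the precision of low genes. No library was treated as a copy: in all 26 pairs of the same group, chi-square divided by its degrees of freedom was 11.2 to 347 (genes with 20 or more counts).

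Counts were fitted in R 4.3.3 with edgeR 4.0.16 after its filter on low counts (14862 genes) and TMM scaling: a robust quasi-likelihood model over all 16 libraries, a mean per group, no covariate, and Benjamini-Hochberg adjustment over all genes tested at 0.05. Every adjusted p is from this test unless another tool is named. The SE was the log2 fold change divided by the square root of F, and 95% intervals are that value ± 1.96 SE. These intervals use the normal factor and are therefore narrower than the F test implies. The script was tested on simulated data. Rn45s shares were compared by exact two-sided permutation. DESeq2 1.42.0, limma 3.58.1 (voom), other scalings and filters, covariates and omitted libraries were alternatives, of which 2 were chosen after seeing the data. Replicate numbers follow deposition order and pair nothing. Positions and promoter windows are RefSeq's for GRCm38.p6 (mm10); motif matches are to the window letters alone.

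The members and lists were chosen with earlier results of these data known. Values in every library are given for Myc and, in each comparison and role, for the called member with the smallest p (or the member with the smallest p); of other lists up to 3 called genes per direction qualify, smallest p first. Further members shown by library were chosen after their values were seen.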

Additional observations from a re-analysis of the deposited data

Results flagged for a closer look

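Within the groups of 5 libraries, 1 library stood apart from the rest in 7 of 106 sets of values examined; chance alone flags about 1 in 20. In BMF at day 10, replicate 3 was high for Gnl3 (93.4 CPM, next 70.2) and for Nop56 (232 CPM, next 201), replicate 4 was low for Wdr43 (153 CPM, next 177), and replicate 5 was high for Bysl (42.9 CPM, next 36.8) and Noc2l (130 CPM, next 114). In BAR at day 10, replicate 3 was high in the summed B cell markers (385 CPM, next 63) and in the summed dendritic cell markers (670 CPM, next 305).

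The drug effect differed between day 14 and day 10, by the test of that difference in edgeR, for Odc1 (0.59 on the log2 scale, adjusted p = 0.0212), Gnl3 (0.66, adjusted p = 0.0199), Ifrd2 (0.85, adjusted p = 0.00129), Nop14 (0.52, adjusted p = 0.0474) and Wdr12 (0.62, adjusted p = 0.00541).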

How the results depend on the processing

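Over the named members and all alternatives, 1733 values kept their direction and side of the threshold, 192 lost the call, 8 gained one and 8 changed sign, all 8 for uncalled Myc or Mycn. The number of members called at day 10 went from 6 to 0 with the Rn45s covariate and to 0 without BMF replicates 1 to 3, rich in Rn45s, and ran from 4 to 10 when single libraries were left out, with 10 without BMF replicate 5. At day 14 it ran from 7 to 15 over omitted libraries. The difference of drug effects gave 2 to 5 over omitted libraries and 2 without the 3 Rn45s-rich libraries. With time, BMF gave 16 to 26 over omitted libraries, 13 without those 3 and 23 with the Rn45s covariate. BAR gave 5 to 17 and, with the neutrophil covariate, 1. Fewer libraries enter the fits that omit some; otherwise the cause was not tested. Myc changed sign to 0.09 at day 14 and 0.06 with time in BAR with the neutrophil covariate. Its difference of drug effects was -0.02 with the Rn45s covariate, -0.04 without BMF day 10 replicate 3, -0.01 without BAR day 10 replicate 2, -0.02 without BAR day 14 replicate 3 and -0.01 without the 3 Rn45s-rich libraries; that of Mycn was -0.08 with the neutrophil covariate. The Rn45s share at day 10 differed by -3.42 to -2.26 percentage points over omitted libraries, and by -2.74 to -2.68 without single BAR libraries (exact two-sided permutation p = 0.0873). With time in BAR it differed by -0.00382 on the log2 scale and by -0.305 to 0.528 percentage points over omitted libraries, with -0.305 without BAR day 14 replicate 1. As a mean of log2 CPM in place of a sum, the members' differences were 0.08 (sum -0.06) at day 10, 0.26 (0.12) at day 14, -0.25 (-0.40) with time in BMF and -0.07 (-0.22) in BAR. Depth limits Mycn, at 2 to 71 counts per library. No paired analysis was possible because the labels give no replicate numbers.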
